A study of Monodelphis domestica and Mus musculus and Sus scrofa with 73 samples.

Results

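In the developing limbs of the bat Carollia perspicillata, 39 of the 27026 assembled genes rose between stage 13 and stage 14 in forelimb and hind limb alike and then held their level to stage 15. The genes were chosen by their measured levels in these same libraries. A gene was kept when its mean length was at least 1000 bases, its mean was at least 1 CPM (a gene's expected count divided by the library's sum and multiplied by 1000000), its mean log2(CPM + 0.5) rose by at least 1 from stage 13 to 14 in each limb, and the same mean moved by less than 0.7 from stage 14 to 15 in each limb. An expected count is the number of reads that the quantification program RSEM assigned to a gene, and need not be whole. In all, 11752 genes passed the limits on length and level, and they serve as the comparison for the 39.

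Embryos were collected in the field in Trinidad, their limbs were removed, and RNA was sequenced as single-end Illumina reads. The 16 libraries came from 3 forelimb and 3 hind limb samples at stage 13 (the limb ridge), 3 and 3 at stage 14 (the limb bud), and 2 and 2 at stage 15 (the paddle). All were wild embryos with no allele or agent applied. The labels do not say how many embryos went into a library or whether replicates came from separate embryos, so p-values measure only the spread between these samples, which may be technical. Replicates 1 and 2 of the stage 14 forelimb carry the label ES and both stage 15 forelimb libraries the label LS, whereas all other libraries are labelled by stage number. The labels ES and LS give no stage number and were taken as stages 14 and 15, where the paper places its early and late bat forelimbs. At stage 15 the label wording and the limb therefore cannot be told apart. Within the forelimb the wording also moves with stage, except that stage 14 replicate 3 is labelled by number like stage 13. With a single such library, the part of the wording in the forelimb changes cannot be fully told apart from that of stage. The genes carry assembly identifiers that no table used here pairs with gene names, so the tissue labels could not be set against marker genes, and members other than 2 are described by their rank in mean CPM (rank 1 is the highest). Members given by rank were singled out after their values were seen.

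A limb arises as a ridge of mesenchyme under ectoderm, grows out as a bud, and flattens into a paddle in which the digit condensations form. Outgrowth is sustained by fibroblast growth factors from the apical ectodermal ridge and by Sonic hedgehog from the posterior mesenchyme, which maintain each other's expression, while Hox genes set position along the limb. In bats the forelimb later becomes a wing with elongated digits joined by membranes, and the hind limb keeps short, even digits.

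The libraries held between 13600741 and 61814821 expected counts, so that 3 counts corresponded to between 0.0485 and 0.221 CPM. The share of assembled genes shorter than 300 bases with at least 1 count stood apart in 5 libraries: the 3 hind limb libraries of stage 13 had 24.2% to 25.7%, stage 13 forelimb replicate 3 had 23.1% and stage 14 hind limb replicate 3 had 19.8%, against 6.36% to 13.6% in the other 11. Within the hind limb this share moved with stage 13, and its part in the results was not tested.

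Each step of the rule removed many genes. A rise of at least 1 was seen in 354 genes in the forelimb and 298 in the hind limb, and 158 of these rose in both. Of the 158, 81 held their level to stage 15 in the forelimb, 48 in the hind limb and 39 in both, whereas 58 went on to rise by a further 0.7 or more in both limbs and 7 fell back by 0.7 or more in both. The smallest rise of a member was 1.004 in the forelimb and 1.005 in the hind limb, and the nearest genes that met every other criterion stood at 0.987 and 0.996. Within 0.1 below the limit lay 12 further genes in the forelimb and 7 in the hind limb. The largest absolute change from stage 14 to 15 of a member was 0.65 in the forelimb and 0.69 in the hind limb, with the nearest genes outside at 0.73 and 0.71.

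The 39 genes together took a larger share of the library at stage 14 than at stage 13. In the forelimb their summed CPM was 409, 540.5 and 449 in the 3 stage 13 libraries, 1177, 1122 and 1190.4 at stage 14, and 1119 and 1165 at stage 15. For the hind limb it was 352, 318 and 329.8 at stage 13, 884, 855 and 1064 at stage 14, and 1089.8 and 1187 at stage 15. The highest stage 13 library, at 540.5, lay below the lowest later one, at 855. Stage 15 overlapped with stage 14 in the forelimb and lay above it in the hind limb. Expressed as mean ± SD, the sums were 466 ± 67.5 (n = 3), 1163 ± 36.3 (n = 3) and 1142 ± 32.0 (n = 2) in the forelimb and 333 ± 17.1 (n = 3), 934 ± 113 (n = 3) and 1138 ± 68.7 (n = 2) in the hind limb. The members were chosen for this course, so it is a description only. In bulk tissue, fewer cells of a type and less RNA per cell cannot be told apart. The 3 members of highest CPM held between 40.6% and 50.8% of the sum in each library, which is why the mean of log2(CPM + 0.5), in which each gene weighs the same, is plotted beside it.

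**Figure D1:**
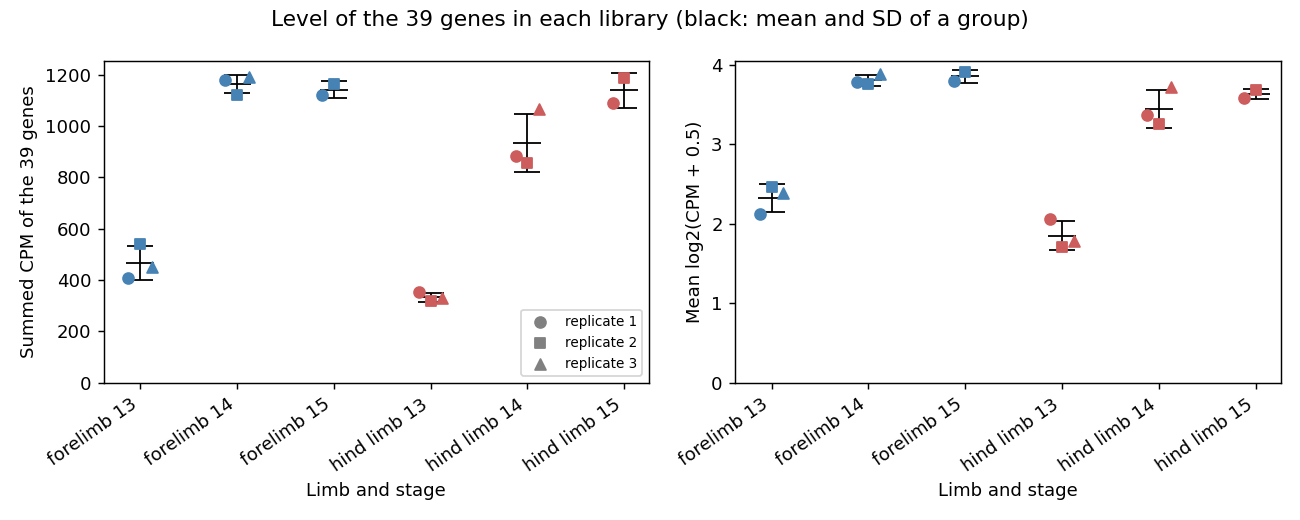
Summed CPM (left) and mean log2(CPM + 0.5) (right) of the 39 genes in each library, by limb and stage. Points are libraries with a shape for each replicate, and black bars show the mean and SD of a group. The stage 13 libraries lie between 318 and 540.5 summed CPM and the later ones between 855 and 1190.4.

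The members were mostly of low level. Per unit length, their mean FPKM (fragments per kilobase and library size, as deposited) ran from 0.596 to 143 with a median of 5.35, against a median of 12.4 over the 11752 genes. Of the 39, 22 (56.4%) had a mean under 10 CPM, against 26.0% of the 11752, and 15 had an expected count under 10 in at least 1 library. Only 1 member had a library with no count at all, the gene of rank 28 in stage 13 hind limb replicate 1. Their median length was 2172 bases, from 1020 to 7853, beside 2534 bases over the 11752 genes. An assembly with a single isoform was reported for 18 members (46.2%), against 33.6% of the 11752, and the most isoforms of any member was 46. The 39 genes came from 39 different assembly components, 4 of which also held other genes.

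The rises themselves had medians of 1.32 in the forelimb and 1.36 in the hind limb on the log2 scale, and reached 3.03 and 3.01. The rise was larger in the forelimb for 16 members and in the hind limb for 23, and 3 members rose by at least 2 in both limbs. With edgeR's quasi-likelihood test and Benjamini-Hochberg adjustment over all genes tested, 26 of the 39 had an adjusted p under 0.05 as higher at stage 14 in the forelimb, where 2.20% of all genes tested did. For the hind limb 25 of the 39 did, beside 4.22% of all genes. Since the rule used these contrasts, nothing is read from either count. Called in both limbs were 17 members, and 5 were called in neither. The matching shares over all genes were not computed, and nothing is read from these counts. All stage 14 libraries lay above all stage 13 libraries for 37 members in the forelimb (16.4% of the 11752 genes did so) and for 32 in the hind limb (14.9%). All 10 libraries of the later stages, both limbs together, lay above all 6 stage 13 libraries for 22 members, beside 3.74% of the 11752. The deposited tables also give RSEM's credibility interval for each FPKM, which covers the uncertainty of read assignment within a library. Every stage 14 interval lay above every stage 13 interval for 27 members in the forelimb (6.13% of the 11752) and 24 in the hind limb (5.53%). The counts of libraries and intervals without overlap also rest on the rise that the rule required, and nothing is read from them.

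**Figure D2:**
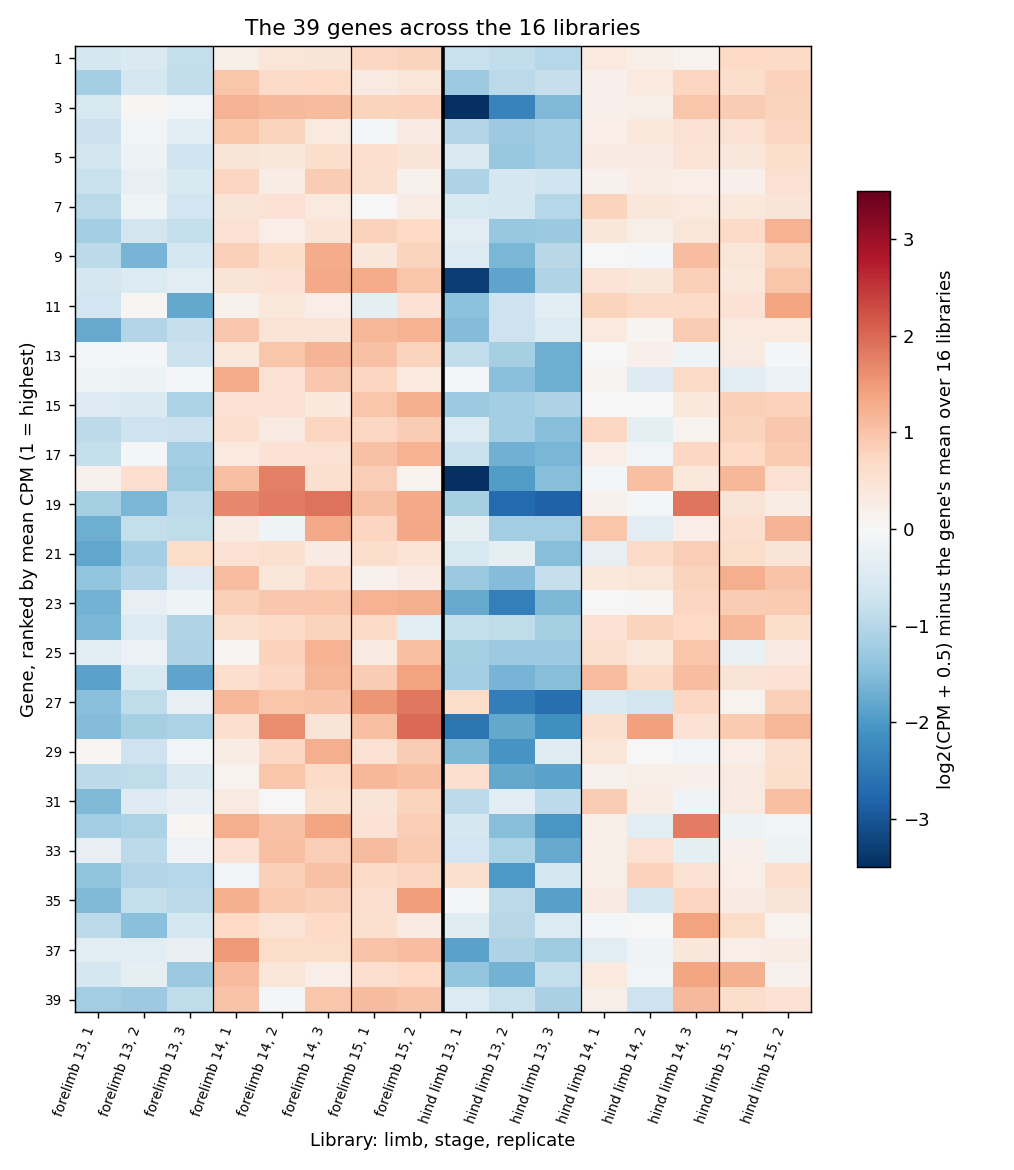
Level of the 39 genes (rows, ranked by mean CPM) in the 16 libraries (columns, grouped by limb and stage). Colour is log2(CPM + 0.5) minus the gene's own mean over the 16 libraries, blue below and red above. Stage 13 columns are mostly blue in both limbs, and the column of stage 14 hind limb replicate 3 is the reddest of its group, with the highest value of the 3 libraries for 24 of the 39 genes.

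The member of highest level, comp113471_c0, is assembled as 1 isoform of 1522 bases. Its CPM was 102, 111 and 88.2 in the stage 13 forelimb, 182, 211 and 215 at stage 14, and 262 and 273 at stage 15. Hind limb values were 91.8, 86.5 and 78.0 CPM at stage 13, 199, 180.3 and 170.6 at stage 14, and 258 and 250.4 at stage 15. The 3 stages did not overlap in either limb, and the value kept climbing after stage 14. The rise from stage 13 to 14 was 1.01 in the forelimb and 1.10 in the hind limb on the log2(CPM + 0.5) scale, and the further change to stage 15 was 0.40 and 0.47, under the limit of the rule. Between limbs it differed by less than in time, and no stage passed the test: the forelimb was higher by 0.28 (edgeR log2 fold change, SE 0.15, adjusted p = 0.834) at stage 13, by 0.11 (SE 0.13, adjusted p = 0.863) at stage 14 and by 0.07 (SE 0.12, adjusted p = 0.960) at stage 15.

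The member with the largest rise shared by both limbs, comp121850_c0, has 1 isoform of 3641 bases and rank 19. In the forelimb its CPM was 1.66, 1.09 and 1.99 at stage 13, 15.0, 16.6 and 17.3 at stage 14, and 9.32 and 11.5 at stage 15. Hind limb values were 1.66, 0.235 and 0.170 at stage 13, 4.87, 4.04 and 17.1 at stage 14, and 6.01 and 5.21 at stage 15. The stage 14 forelimb values lay close together, whereas stage 14 hind limb replicate 3 stood at the level of the stage 14 forelimb, above the other 2 libraries of its group. The rise was 3.03 in the forelimb and 2.89 in the hind limb. By edgeR the hind limb rise did not pass the threshold (log2 fold change 3.71, SE 1.01, adjusted p = 0.0685). The forelimb rise did (3.38, SE 0.28, adjusted p = 0.00086), and both contrasts were part of the rule. Its stage 13 hind limb libraries held 27, 4 and 4 expected counts, so replicate 1 stood well above the others. The forelimb was higher than the hind limb at each stage, by 1.24 (edgeR, SE 0.81, adjusted p = 0.834) at stage 13, 0.93 (SE 0.47, adjusted p = 0.716) at stage 14 and 0.88 (SE 0.28, adjusted p = 0.280) at stage 15. None of these passed the threshold.

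**Figure D3:**
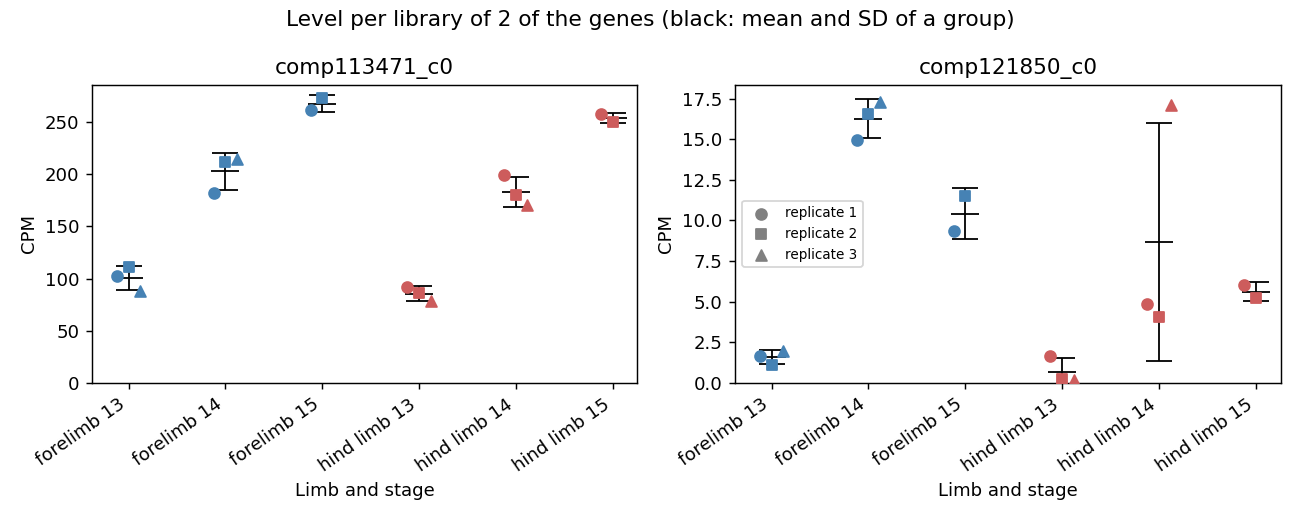
CPM of comp113471_c0 (left) and comp121850_c0 (right) in each library, by limb and stage, with a shape for each replicate and black bars for the mean and SD of a group. The left gene climbs through all 3 stages in both limbs. The right gene peaks at stage 14 in the forelimb, and its stage 14 hind limb libraries spread widely, with 1 at 17.1 CPM beside 4.87 and 4.04.

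After stage 14 the members took several courses within the limits of the rule. From stage 14 to 15, 19 were higher in both limbs, 6 were lower in both, 10 were lower in the forelimb and higher in the hind limb, and 4 the reverse. The median change was 0.06 in the forelimb and 0.24 in the hind limb, and 12 members moved by less than 0.3 in both. For some members stages 14 and 15 did not overlap within a limb, in each direction at a share below that of the 11752 genes. Nothing is read from these counts. In the forelimb every stage 15 library was above every stage 14 library for 9 members (25.9% of the 11752 genes) and below for 7 (21.6%), and in the hind limb above for 8 (23.4%) and below for 2 (15.1%). In 2 members both limbs were without overlap and moved opposite ways, as in 1.03% of the 11752. By edgeR 4 of the 39 had an adjusted p under 0.05 between stages 15 and 14 in the forelimb, 2 in each direction, beside 12.8% of all genes tested. For the hind limb edgeR called 0 of the 39, beside 4.97% of all genes, with 4 at an unadjusted p under 0.05 (18.7% of all genes) and 1 called by DESeq2 (8.93%). These contrasts too were part of the rule.

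**Figure D4:**
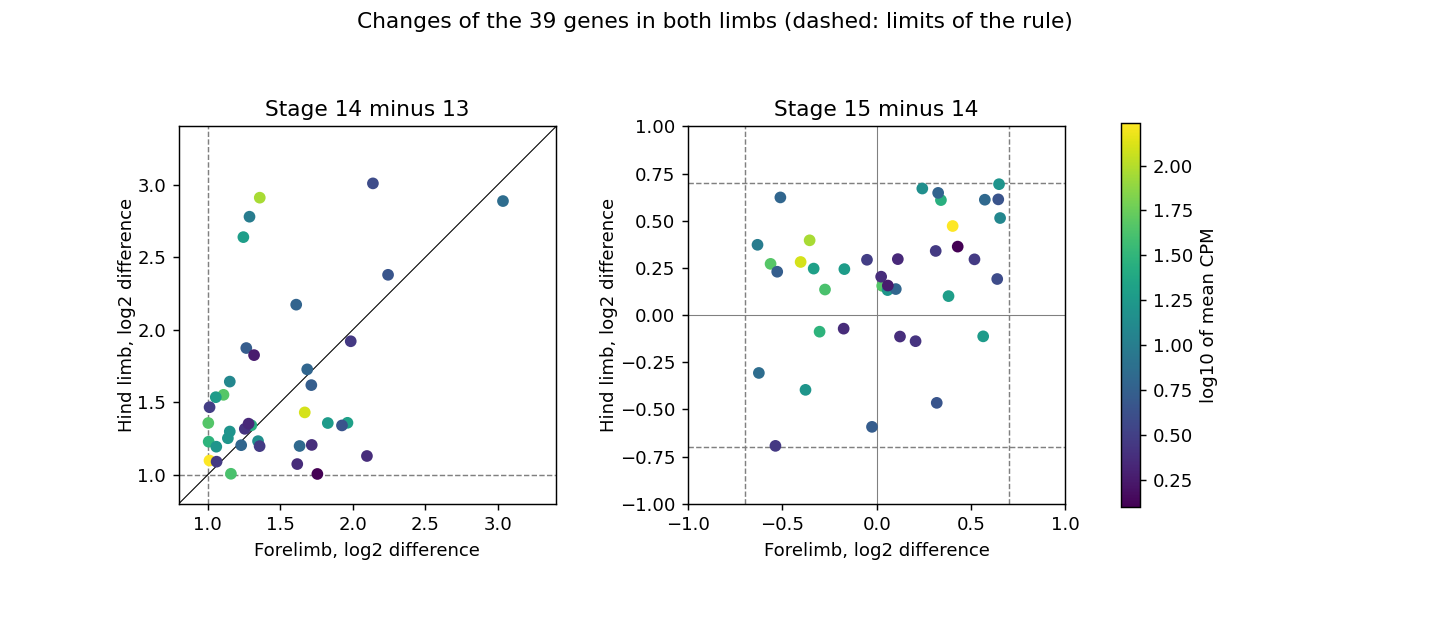
Change of each of the 39 genes in the forelimb (x axis) and hind limb (y axis), as differences of mean log2(CPM + 0.5), from stage 13 to 14 (left) and from stage 14 to 15 (right). Colour gives the log10 of the mean CPM, dashed lines the limits of the rule, and the black line equal rises. Most rises lie under 2 in both limbs, and 3 genes rise by over 2.5 in the hind limb with under 1.4 in the forelimb.

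The rule made no use of the contrast between limbs, which asks whether the wing bud and the leg bud hold these genes at the same level, although the same libraries entered both. Unlike the members, the 11752 genes were not chosen for a rise with stage, and the part of that choice in the limb difference was not tested. As a group the members were higher in the forelimb. The median of forelimb minus hind limb, in mean log2(CPM + 0.5), was 0.26 at stage 13, 0.31 at stage 14 and 0.30 at stage 15, against -0.02, 0.01 and 0.01 over the 11752 genes. The forelimb mean was the higher for 30 of the 39 members (76.9%) at stage 13, 35 (89.7%) at stage 14 and 24 (61.5%) at stage 15, where 46.3%, 52.4% and 52.2% of the 11752 genes had it higher. At all 3 stages the forelimb was higher for 17 members (43.6%, beside 16.3% of the 11752) and lower for 1. On edgeR's scale, with TMM normalization, the forelimb was higher for 30 of 38 members tested at stage 13, 32 of 39 at stage 14 and 24 of 39 at stage 15. Some of these levels rested on few reads: for the member of rank 28 the stage 13 libraries held 0, 6 and 4 expected counts in the hind limb and 16, 23 and 12 in the forelimb.

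No single member passed the test between limbs. At stage 13 edgeR called 0 of 38 members at an adjusted p under 0.05 (0.0747% of all genes tested), at stage 14 0 of 39 (0.155%) and at stage 15 0 of 39 (0.823%). At an unadjusted p under 0.05 there were 9 members at stage 13, all higher in the forelimb (6.08% of all genes), 9 at stage 14, of which 8 were higher in the forelimb (7.29%), and 14 at stage 15, of which 10 were (8.00%). DESeq2 called 2 members at stage 13 (0.862% of all genes), 1 at stage 14 (1.20%) and 2 at stage 15 (1.35%). Every forelimb library lay above every hind limb library for 8 members at stage 13 (5.13% of the 11752 genes), 6 at stage 14 (11.3%) and 17 at stage 15 (19.7%). The reverse held for 0 members at stage 13 (5.17%), 1 at stage 14 (4.73%) and 4 at stage 15 (16.1%). The smallest adjusted p of a member was 0.310 at stage 13, 0.371 at stage 14 and 0.0553 at stage 15.

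At stage 13 all 3 hind limb libraries but only replicate 3 of the forelimb held many short genes, and the part of this in the limb difference was not tested. Without stage 13 forelimb replicate 3 the forelimb was higher for 29 members (74.4%, beside 44.4% of the 11752 genes) with a median difference of 0.29, and edgeR then called 3 of 38 members, all higher in the forelimb, a share near that of all genes tested (7.84%). Without stage 14 hind limb replicate 3 the forelimb was higher for 34 members (87.2%, beside 56.0%) with a median of 0.41, and edgeR called 3 of 39, all higher in the forelimb (0.282%). With the ES libraries left out, which left 1 forelimb library against 3 at stage 14, it was higher for 33 (84.6%) with a median of 0.49, and the 11752 genes were also higher more often (60.6%, median 0.07).

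**Figure D5:**
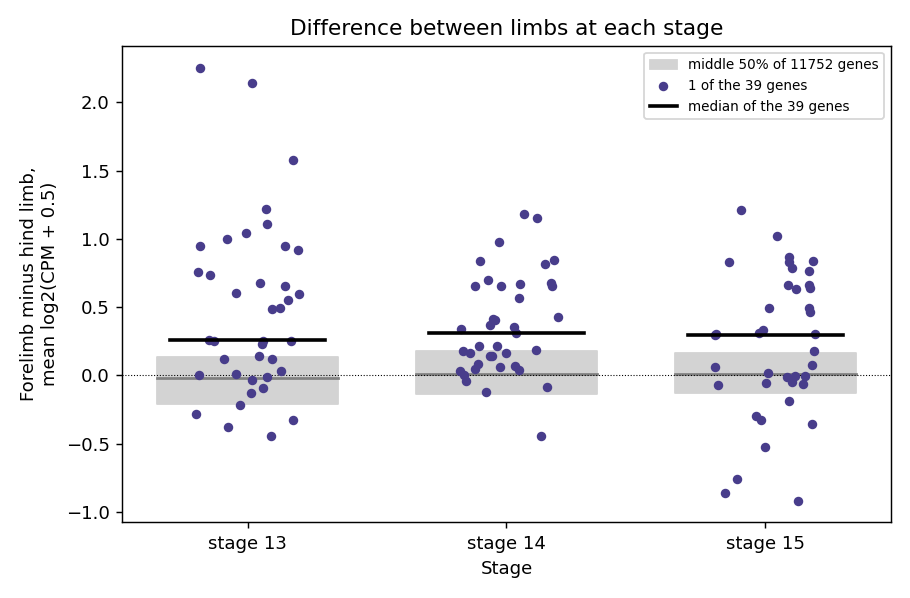
Forelimb minus hind limb, as the difference of mean log2(CPM + 0.5), for each of the 39 genes (points) at stages 13, 14 and 15. Black lines are medians of the 39 (0.26, 0.31 and 0.30), and grey boxes with grey lines the middle 50% and the median of the 11752 genes. Most points lie above the dotted line at 0 at stages 13 and 14, and the 2 widest gaps, 2.25 and 2.14 at stage 13, stand at -0.05 and -0.35 at stage 15.

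Some members began apart in the limbs and met at stage 15. For the gene of rank 3, of 3033 bases, the libraries had 45.8, 69.7 and 63.6 CPM in the stage 13 forelimb and 5.58, 13.0 and 23.0 in the stage 13 hind limb. At stage 14 it had 155, 151 and 148 CPM against 76.8, 78.3 and 133, and at stage 15 118 and 119 against 127 and 118. The limbs did not overlap at stages 13 and 14 and lay between 118 and 127 CPM together at stage 15. The difference was 2.13 (edgeR log2 fold change, SE 0.45, adjusted p = 0.310) at stage 13 and 0.64 (SE 0.19, adjusted p = 0.435) at stage 14. A second such gene, of rank 18 and 1293 bases, had 8.0, 11 and 2.72 CPM in the stage 13 forelimb against 0.184, 1.47 and 2.21 in the hind limb, and 13.3 and 7.82 against 16.6 and 10.5 at stage 15. Its limbs overlapped at stage 15, and at stage 13 forelimb replicate 3 was just above the highest hind limb library. Its stage 13 difference was 2.54 (SE 0.80, adjusted p = 0.670).

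Other members kept a higher level in the forelimb throughout. Among them the gene of rank 13, of 3895 bases, had 13.4, 13.7 and 8.16 CPM in the stage 13 forelimb against 7.55, 6.06 and 4.00 in the hind limb, 18.3, 28.4 and 33.1 against 14.0, 16.2 and 12.7 at stage 14, and 29.4 and 24.7 against 17.7 and 13.9 at stage 15. Its limbs did not overlap at any stage. Likewise the gene of rank 37, of 2098 bases, had 1.25, 1.23 and 1.40 CPM against 0.123, 0.588 and 0.468 at stage 13, 5.92, 3.09 and 3.10 against 1.24, 1.59 and 2.51 at stage 14, and 4.06 and 4.37 against 2.20 and 2.25 at stage 15. Here too the forelimb libraries were all above the hind limb libraries at each stage. Its stage 13 hind limb values rested on 2, 10 and 11 expected counts, beside 37, 34 and 19 in the forelimb. The first lies under the level of 3 counts in its library (0.184 CPM). The shares of all genes apart, or with an unadjusted p under 0.05, at all 3 stages were not computed. These 2 genes had an unadjusted p under 0.05 at all 3 stages, with edgeR differences of 1.06, 0.85 and 0.76 for rank 13 (adjusted p from 0.184 to 0.675) and 1.73, 1.18 and 0.91 for rank 37 (adjusted p from 0.477 to 0.693).

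At stage 15 the differences ran in both directions. Rank 12, a gene of 1221 bases, had 35.1 and 36.3 CPM in the forelimb and 19.4 and 19.3 in the hind limb, a difference of 0.87 (edgeR, SE 0.19, adjusted p = 0.0553), and at stage 13 its limbs overlapped (4.17, 7.26 and 8.53 against 5.04, 9.0 and 10.7). Rank 22, a gene of 2275 bases, had 5.78 and 6.46 CPM against 13.2 and 10.9, so that the hind limb was higher (difference -0.99, SE 0.27, adjusted p = 0.152). Both pairs of libraries were well separated, and neither passed the threshold with 2 libraries a limb.

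RSEM weights a gene's length by the estimated abundance of its isoforms, so a change in the length reported for a gene records a change in the estimated isoform mix, a measure that the rise did not use. Among genes with more than 1 isoform and enough counts, limma on log2 of this length between stages 14 and 13 called 0 of 18 members in the forelimb, beside 0.0120% of all genes tested, with 3 at an unadjusted p under 0.05 (5.93% of all genes). For the hind limb it called 2 of 11, beside 2.76%, and both were shorter at stage 14. The gene of rank 2, with 10 isoforms, had weighted lengths of 11712, 10405 and 12062 bases in the stage 13 hind limb and 6692, 7101 and 6661 at stage 14, and 6480.1 and 5966 at stage 15. Forelimb lengths were 8364, 7904 and 11408 bases at stage 13, 6199, 6419.8 and 6391 at stage 14, and 5994 and 5888 at stage 15. Its length was greater in every stage 13 library than in any later one, and at stage 13 the forelimb library nearest to the hind limb was replicate 3, the forelimb library with many short genes. The difference was -0.74 (log2, limma, SE 0.07, adjusted p = 0.0214) in the hind limb and -0.52 (SE 0.16, adjusted p = 0.748) in the forelimb. Rank 11, a gene with 2 isoforms, had 1805 bases in all 3 stage 13 hind limb libraries and 1741, 1754 and 1762 at stage 14, a small difference of -0.04 (SE 0.01, adjusted p = 0.0371). In the forelimb its lengths overlapped, at 1671, 1713 and 1805 bases against 1698, 1645 and 1709. Without single libraries of the hind limb 0 members were called, except 1 without stage 13 replicate 2, and all 3 stage 13 hind limb libraries are among those with many short genes.

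The members varied more between libraries of a group than other genes did. The median over the 39 of the pooled within-group SD of log2(CPM + 0.5) was 0.46, against 0.25 over the 11752 genes, which were of higher level. By group it was widest in the stage 13 hind limb (0.50 against 0.20), followed by the stage 14 hind limb (0.40 against 0.24) and the stage 13 forelimb (0.40 against 0.25). The stage 14 forelimb had 0.26 against 0.16, and at stage 15 it came to 0.18 against 0.15 in the forelimb and 0.17 against 0.12 in the hind limb. The stage 13 values also rested on the fewest reads, and the median ratio of the upper to the lower bound of RSEM's FPKM interval was 1.71 in the stage 13 forelimb and 2.09 in the stage 13 hind limb, beside 1.29 and 1.33 at stage 14.

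Deviations from the group means were only loosely shared. Over the 741 pairs of members, which share all 16 libraries, the mean Pearson correlation of these deviations was 0.10, against 0.03 for the 11752 genes. Of the member pairs 16 reached 0.8, and the matching share over pairs of the 11752 genes was not computed. The closest pair was comp121850_c0 with the gene of rank 32, of 4931 bases (r = 0.90 over 16 libraries). The latter had 2.47, 1.5 and 8.49 CPM in the stage 14 hind limb, where replicate 3 was again the high library, and 5.67, 4.70 and 6.25 in the stage 14 forelimb. In the stage 13 hind limb it had 1.23, 0.412 and 0.128 CPM, and replicate 1 was the high library for both genes.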

How the data were processed

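RNASeq tables of the 16 bat libraries were used, and files of other species were not analysed here. Reads were trimmed by the authors, a transcriptome was assembled with Trinity from all bat reads together, assembled sequences that matched a known protein were retained, and RSEM estimated their abundance. The deposited expected counts are RSEM estimates per gene, not normalized. The deposited FPKM and its credibility bounds were normalized by the authors' RSEM run for effective length and library size. Lengths are abundance-weighted means over isoforms. Nucleotide sequences of the assembly were not used here.

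From the expected counts, CPM and group means of log2(CPM + 0.5) were computed. The members were chosen with earlier results of these data known, and so were the tests and alternatives. Identifiers were printed for the member of highest mean CPM and the member with the largest smaller rise of both limbs. Between groups, expected counts were rounded and fitted with edgeR 4.0.16 (quasi-likelihood, robust, TMM; R 4.3.3) on the libraries of the 2 groups compared, requiring 10 or more rounded counts in as many libraries as the smaller group held, with Benjamini-Hochberg adjustment over all genes tested and a threshold of 0.05. Weighted lengths were tested with limma 3.58.1 for genes with more than 1 isoform and a count of at least 10 in every library of both groups. Simulated data were used to test some of the fits but not every comparison, and nothing is read here from those tests. Alternatives were DESeq2 1.42.0, RLE factors, no count filter, a block for the replicate number, omission of single libraries, and for the rule a pseudocount of 1, group medians, FPKM, TMM library sizes and no limit on length or level. Analyses without the ES libraries, and without stage 13 forelimb replicate 3 and stage 14 hind limb replicate 3, were added after seeing the data. These 2 libraries are rich in short genes, as are those of the stage 13 hind limb, which were kept. Totals of 13600741 to 61814821 expected counts per library set the depth, and floors of 3 counts cover counting error only. Tables were made in Python 3.11.15 with pandas 2.3.3 and numpy 2.4.6, and plots with matplotlib 3.10.9.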

Additional observations from a re-analysis of the deposited data

Results flagged for a closer look

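For 2 of the 39 genes the limbs moved in opposite directions between stages 14 and 15, with no overlap between the libraries of the 2 stages in either limb, a pattern held by 1.03% of the 11752 genes that passed the limits on length and level. The difference between the limbs was not tested, and both genes were within the limit of the rule in each limb. Rank 4 had 83.2, 73.5 and 53.9 CPM in the stage 14 forelimb and 41.5 and 52.3 at stage 15, and 50, 55.1 and 61.9 in the stage 14 hind limb and 62.3 and 72.2 at stage 15. Its change was -0.56 in the forelimb and 0.27 in the hind limb on the log2(CPM + 0.5) scale, so the forelimb change was lower by -0.83. The nearest libraries of the 2 stages were 53.9 and 52.3 CPM in the forelimb and 61.9 and 62.3 in the hind limb, a margin far below the spread within either stage. Rank 22 had 11.5, 6.94 and 8.91 CPM in the stage 14 forelimb and 5.78 and 6.46 at stage 15, and 6.78, 7.05 and 9.16 in the stage 14 hind limb and 13.2 and 10.9 at stage 15. Its change was -0.51 in the forelimb and 0.62 in the hind limb, a gap between limbs of -1.13. Both stage 15 forelimb libraries carry the label LS, and the part of the label wording in this was not tested.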

How the results depend on the processing

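The number of members stayed within 1.5 times of 39 under every alternative rule tried, at 30 with a pseudocount of 1, 29 from FPKM, 31 from group medians and 48 with TMM library sizes, and between 34 and 52 with each library left out. The genes themselves changed more: 6 of the 39 met the rule in all 16 cases with a library left out. Without the ES libraries 40 genes met it (29 shared). Without stage 13 forelimb replicate 3 and stage 14 hind limb replicate 3, both rich in short genes, 33 did (21 shared). The stage 13 hind limb libraries, also rich in short genes, were kept there.

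Between limbs at stages 13, 14 and 15, the count of 0 members became 2, 1 and 2 with DESeq2 (0.862%, 1.20% and 1.35% of all genes). At an unadjusted p under 0.05 it became 9, 9 and 14 (6.08%, 7.29% and 8.00%). With each library left out the adjusted count ran from 0 to 3 at stage 13 (3 without forelimb replicate 3, 7.84% of all genes). It ran from 0 to 3 at stage 14 (3 without hind limb replicate 3, 0.282%). At stage 15 it ran from 0 to 2 (2 without forelimb replicate 1, 2.88%). Without the count filter it was 5 at stage 15 (1.71% of all genes), 3 higher and 2 lower in the forelimb. The replicate block gave 3 there (1.59%), 2 higher and 1 lower. For stage 14 against 13 in the forelimb, all libraries gave 26 (3.03% of all genes, either direction), DESeq2 34 (8.47%) and the replicate block 34 (5.82%). Without stage 13 replicates 1, 2 and 3 it was 9 (0.944%), 16 (1.74%) and 29 (4.51%). Without stage 14 replicates 1, 2 and 3 it was 5 (0.504%), 10 (0.738%) and 8 (0.936%). Leaving out the ES libraries left 1 library at stage 14, assumed to vary like those of stage 13. The members' median log2 change was then 1.56, beside 1.49 with all libraries. Whether the members' calls hold without the ES libraries cannot be told from 1 library. In the hind limb stage 14 against 13 ran from 13 (without stage 14 replicate 1, 2.52% of all genes) to 30 (without stage 13 replicate 1, 8.21%). DESeq2 gave 33 (17.2%). With a library left out, stage 15 against 14 in the forelimb fell below its 4 calls. It was 0 without any 1 of stage 14 replicates 1 and 2 or stage 15 replicates 1 and 2 (3.72% to 8.63% of all genes). Without stage 14 replicate 3 it was 2 (10.5%). DESeq2 gave 6 (17.6%) and no count filter 5 (11.5%). In the hind limb DESeq2 gave 1 (8.93%). The 2 members called for weighted length in the hind limb became 1 without stage 13 replicate 2 (1.11% of all genes). They became 0 without any other library (0.145% to 1.67%) and 0 with the replicate block (0%). Some same-numbered libraries deviated together, but in no comparison with 3 pairs did every pair (correlations from -0.20 to 0.61 over all comparisons), so the numbers were not taken as pairs. Members with few counts at stage 13 limit the precision of each rise.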
